A study of Saccharomyces cerevisiae with 8 samples.

Results

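A respiratory chain cannot be built from its subunits alone. In Saccharomyces cerevisiae a large group of nuclear genes encodes the helpers: proteins that let mitochondrial ribosomes translate the few subunits encoded in mitochondrial DNA, insert those subunits into the inner membrane, attach haem and deliver copper. A separate set of enzymes makes coenzyme Q (ubiquinone), the lipid that carries electrons to the cytochrome bc1 complex (complex III). Cells without the key helpers fail to assemble complex III, cytochrome c oxidase (complex IV) or ATP synthase, and cannot grow on non-fermentable carbon sources. The 49 genes described here are the assembly factors and translational activators of those 3 complexes together with the coenzyme Q synthesis genes. They were picked by symbol from a list drawn up with earlier results of these data known. The shares of these genes given below are therefore descriptive. All 49 were measured, each by 1 probe set (the group of short probes that reads a transcript on an Affymetrix Yeast Genome 2.0 array), among 5449 genes in all.

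Transcripts were measured in 3 strains of the BY4741 background, all grown in YPD, a rich glucose medium, with 4 mM cAMP for 24 h. The Δpde2 strain (3 arrays) lacks PDE2, the high affinity cAMP phosphodiesterase, so that added cAMP stays available to protein kinase A (PKA). The Δpde2Δtpk3 strain (2 arrays) also lacks TPK3, which encodes a catalytic subunit of PKA, and the wild type (3 arrays) carries both genes. In Δpde2 cells PDE2 is replaced by KanMx, whereas in Δpde2Δtpk3 cells HIS3 replaces PDE2 and KanMx replaces TPK3. Both mutants also have different origins, so marker and strain origin cannot be told apart from the loss of TPK3 when they are compared. The labels do not say that replicates came from separate cultures. The methods describe triplicate cultures, 2 Δpde2Δtpk3 arrays were used here, and p-values measure only the spread between these arrays. Every value below is a log2 signal of a probe set, which is not comparable between genes. A culture is read in bulk, so fewer cells carrying a transcript and less of it per cell cannot be told apart.

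The deleted genes PDE2 and TPK3 followed the labels. PDE2 had log2 levels of 5.18, 5.08 and 4.92 in Δpde2 cells and 5.17 and 4.89 in Δpde2Δtpk3 cells, against 9.13, 10.73 and 9.66 in wild type cells. TPK3 was low in Δpde2Δtpk3 cells alone, at 4.97 and 4.37, whereas Δpde2 cells had 8.58, 8.84 and 8.57 and wild type cells 8.64, 8.77 and 8.66. HIS3, the marker given for Δpde2Δtpk3 cells, was at 11.81, 11.86 and 11.96 in Δpde2 cells, 11.11 and 11.53 in Δpde2Δtpk3 cells, and 11.36, 10.88 and 10.95 in wild type cells, so it was not highest in the strain said to carry it. All strains are listed as his3 mutants and all gave HIS3 signal, so this probe set does not show whether the marker is present. LEU2 and MET17 (also MET15) are listed as deleted in every strain. MET17 was at 8.27 on Δpde2 replicate 1 and 7.39 on wild type replicate 1, against 5.35 to 5.73 on the other arrays. LEU2 was at 7.7, 7.2 and 7.1 on replicate 1 of Δpde2, wild type and Δpde2Δtpk3 cells, and at 5.5 to 6.6 on the others. URA3 was at 3.80 to 4.91 on all arrays. Across all genes, wild type replicate 1 was unlike the rest. It correlated with the other wild type arrays at r = 0.868 and 0.878 across all genes, while those arrays correlated with each other at r = 0.992. The residual SD was 0.604 for that array and 0.0983 to 0.340 for the others. All 3 measured transcripts of α mating type cells were higher on it than on the other wild type arrays: MF(ALPHA)1 was at 9.20 against 7.17 and 6.79, MF(ALPHA)2 at 7.95 against 6.10 and 6.06, and STE3 at 9.22 against 7.60 and 7.57. Transcripts of a mating type cells were also highest on it among the wild type arrays. ASG7 was at 10.87 against 9.38 and 9.80, BAR1 at 11.10 against 10.23 and 10.56, and STE2 at 12.04 against 11.58 and 11.71. MFA1 and MFA2 differed less, at 12.26 against 12.04 and 12.12, and at 13.27 against 13.05 and 13.07. The part of these differences in the results below was not tested. The counts of genes called, over all 49 and by role, are therefore given with and without that array.

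A part of the assembly and coenzyme Q genes was lower in Δpde2 cells than in Δpde2Δtpk3 cells. Of the 49 genes, 18 fell (36.7%) and 1, CBP2, rose, while 30 did not pass the test (limma, 1 fit of the 3 strains, adjusted p under 0.05 over all 5449 genes). Of all genes tested, 7.41% were called lower and 5.56% higher in this comparison. The largest falls were those of COX10, CYT2, SCO1, COQ2 and CBP4, each called and at least 2 fold, which held for 2.5% of all genes. The median log2 fold change was -0.42 over the 49 genes and 0.02 over all genes, and 43 of the 49 values were below 0. In 35 genes (71.4%) every Δpde2 array lay below both Δpde2Δtpk3 arrays, and in 4 every Δpde2 array lay above them, against 30.6% and 34% of all genes.

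These calls depended on the arrays used. Wild type replicate 1 is in neither strain compared, and enters through the shared estimate of spread and the joint normalisation. Leaving it out of the fit left the fold changes as they were, and 31 genes were called lower and 1 higher, with 20.8% and 23.8% of all genes called. Among the 31 were all of the 18, and the 13 others were CBP3, CBS1, COX23, COX18, COX20, COX16, SHY1, PET100, PET54, PET309, ATP10, ATP12 and COQ4. By role, the counts lower without it were 3 of 6 cytochrome b factors, 5 of 7 copper and twin CX9C proteins, 2 of 4 insertion factors, 4 of 5 other complex IV assembly factors, 5 of 6 translational activators, 2 of 5 ATP synthase factors and 5 of 9 coenzyme Q genes, and those of the other roles did not change. Without wild type replicate 2 or without wild type replicate 3 the count was 11. Leaving out an array of the mutants left few calls: 1 without Δpde2 replicate 1, 3 without Δpde2 replicate 2, 2 without Δpde2 replicate 3, and 2 without each Δpde2Δtpk3 array in turn, when 0.697% to 1.73% of all genes were called lower. CBP4 was called lower in each of these 8 fits (highest adjusted p 0.0494), and CYT2 in 7 of them (0.0521 without Δpde2 replicate 1). CBP2 was called higher in the 3 fits without a wild type array, and in none without a mutant array.

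**Figure D1:**
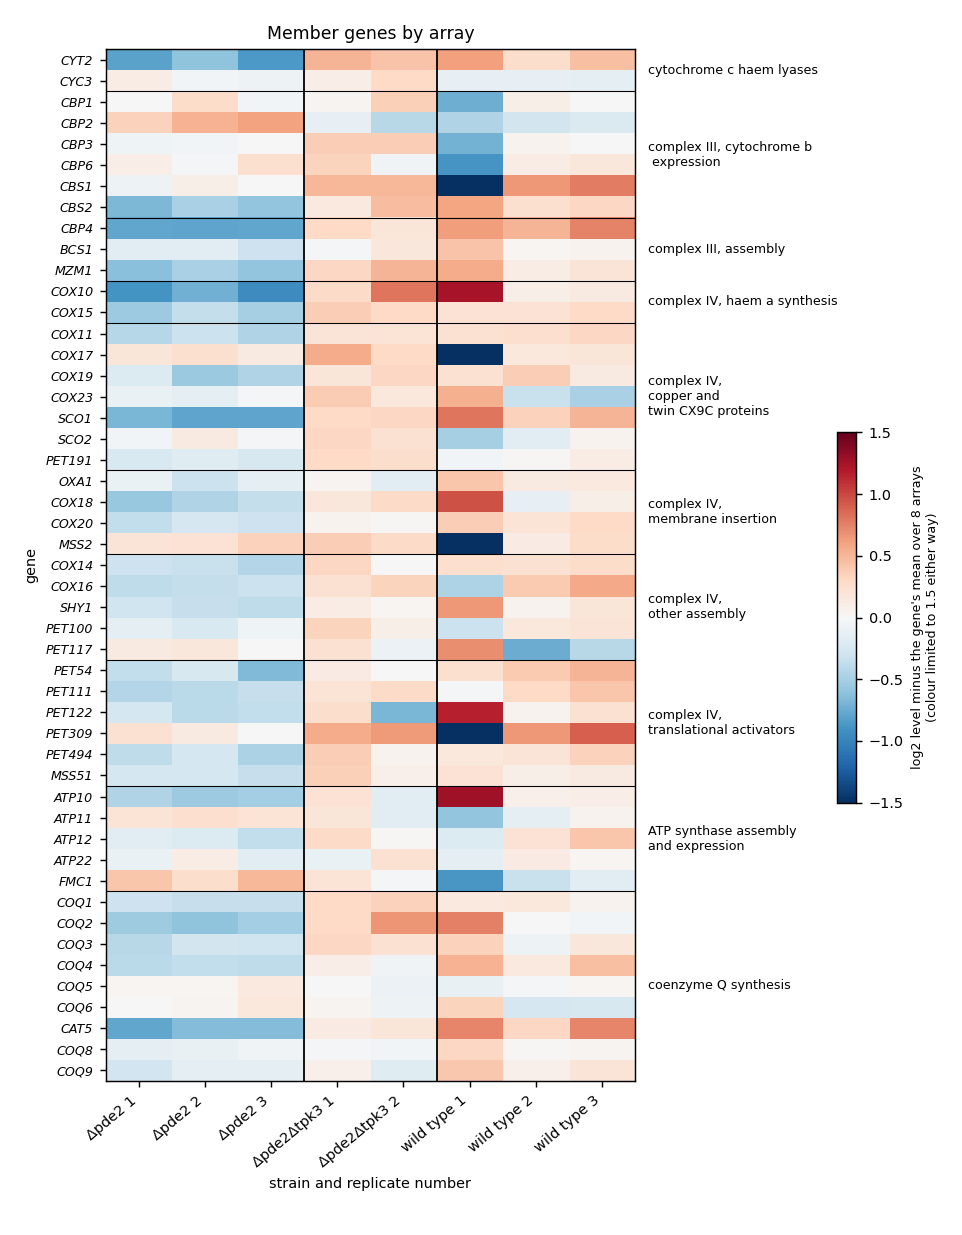
Log2 level of each of the 49 genes (rows, grouped by role) on each of the 8 arrays (columns), as the difference from the mean of that gene over all arrays. Blue is below and red above the mean, and the colour scale ends at 1.5 either way. The 3 Δpde2 columns are blue for COX10, CYT2, SCO1 and CBP4, and wild type replicate 1 differs from the other wild type columns in genes such as PET309, CBS1 and COX17.

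**Figure D2:**
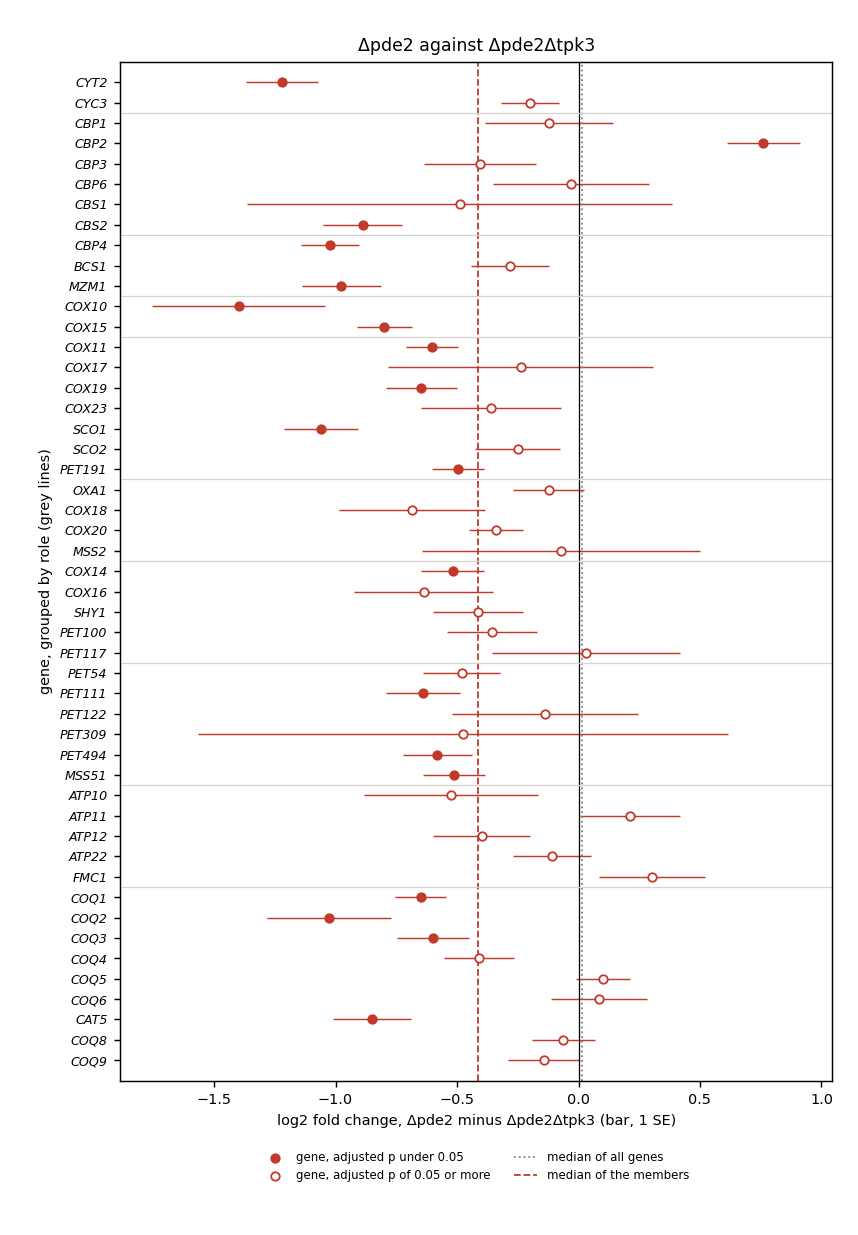
Log2 fold change, Δpde2 minus Δpde2Δtpk3, of each of the 49 genes with 1 SE as a bar. Filled points are the 18 genes called lower and CBP2, called higher, and the dashed and dotted lines are the medians of the 49 genes (-0.42) and of all genes (0.02).

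In Δpde2 cells 24 of the 49 genes fell relative to wild type cells (49%) and 2, CBP2 and FMC1, rose, while 23 did not pass and 33 of the 49 values were below 0, where 21.9% of all genes were called lower and 19.5% higher. The 5 falls of at least 2 fold were those of CBP4, COX10, SCO1, CAT5 and CYT2, and 9.07% of all genes were called with a fall of that size. At that limit the share of the 49 genes was therefore close to that of all genes. The median was -0.44 over the 49 genes and 0.03 over all genes. In 29 genes every Δpde2 array lay below every wild type array, and in 4 above, against 30.9% and 31.1% of all genes. Of the 24 genes, 16 were called whichever array was left out, and the count ran from 16 to 31. The highest, 31 lower and 5 higher, came without wild type replicate 1, when 29.4% of all genes were called lower and 31.4% higher. All 24 were among the 31, and CBS1, PET191, COX18, COX16, PET100, PET309 and ATP12 were the others. By role this gave 2 of 6 cytochrome b factors, 4 of 7 copper and twin CX9C proteins, 3 of 4 insertion factors, 4 of 5 other complex IV assembly factors, 5 of 6 translational activators and 2 of 5 ATP synthase factors, with no change in the other roles. The 3 further genes called higher there were COX23 (log2 fold change 0.32), PET117 (0.68) and COQ6 (0.31), whose values with that array were 0.01, 0.26 and 0.12. Without Δpde2 replicate 3 only CBP2 was called higher, the adjusted p of FMC1 being 0.0543. The comparison uses the same Δpde2 arrays as the one with Δpde2Δtpk3 cells, so the results of both are not independent.

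Between Δpde2Δtpk3 cells and wild type cells none of the 49 genes passed the test (limma, adjusted p under 0.05), where 1.69% of all genes were called lower and 1.03% higher. At an unadjusted p under 0.05 there were 3 lower and 4 higher. The share of all genes at that limit was not counted, and the shares above are at the adjusted limit. The 3 and 4 genes are therefore not shown to be more than among all genes. The median log2 fold change was 0.05, and the lowest adjusted p was 0.133, for CBP4 (log2 fold change -0.39). Without wild type replicate 1, when 9.08% of all genes were called lower and 8.77% higher, CBP4 was called lower (-0.39, adjusted p 0.0492) and CBP3, COX23, PET117 and COQ2 were called higher, with log2 fold changes of 0.34, 0.68, 0.65 and 0.50 in place of 0.59, 0.37, 0.23 and 0.24. With only 2 Δpde2Δtpk3 arrays the intervals were wide, and a gene that did not pass is not shown to be unchanged.

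**Figure D3:**
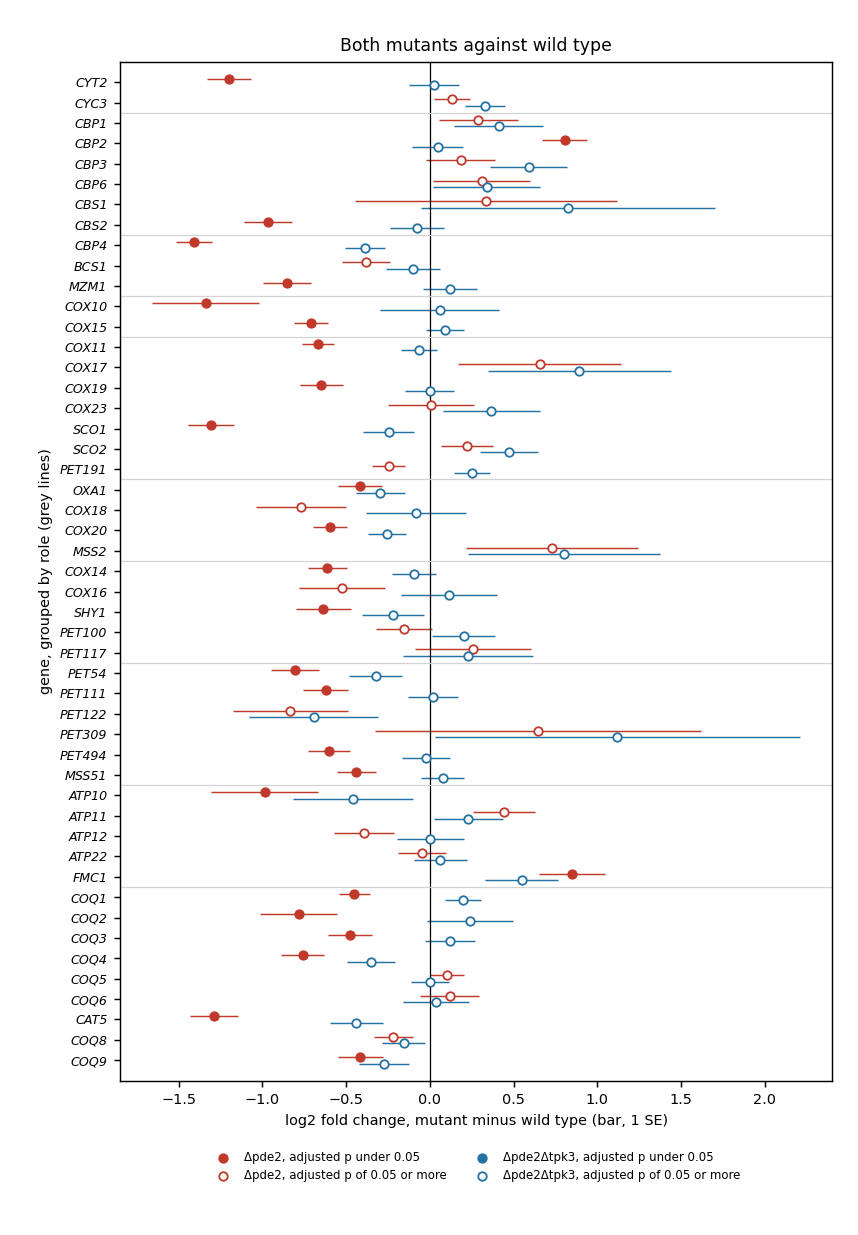
Log2 fold change of each of the 49 genes, with 1 SE as a bar, for Δpde2 minus wild type (red) and Δpde2Δtpk3 minus wild type (blue). Filled points passed the test, which was so for 24 falls and 2 rises in Δpde2 cells and for no gene in Δpde2Δtpk3 cells.

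Haem has to be attached to the c-type cytochromes by haem lyases, of which yeast has a pair. CYT2 (YKL087C) serves cytochrome c1 of complex III and CYC3 (YAL039C) serves cytochrome c. CYT2 had log2 levels of 9.66, 9.85 and 9.60 in Δpde2 cells, 10.96 and 10.89 in Δpde2Δtpk3 cells, and 11.08, 10.72 and 10.91 in wild type cells. All Δpde2 arrays lay below all others. Its level in Δpde2 cells was 42.9% of that in Δpde2Δtpk3 cells (log2 fold change -1.22, SE 0.15, adjusted p 0.00729) and 43.6% of that in wild type cells (-1.20, SE 0.13, adjusted p 0.000791). The corresponding difference for Δpde2Δtpk3 minus wild type was 0.02, with a 95% interval of -0.32 to 0.37. CYC3 read 12.18, 12.03 and 12.00 in Δpde2 cells, 12.17 and 12.37 in Δpde2Δtpk3 cells, and 11.95, 11.96 and 11.92 in wild type cells. It passed in no comparison (log2 fold changes -0.20, adjusted p 0.319, against Δpde2Δtpk3 cells and 0.13, adjusted p 0.355, against wild type cells). The difference between both lyases was not tested.

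Cytochrome b, the mitochondrially encoded subunit of complex III, needs its own set of nuclear factors. CBP1 (YJL209W) stabilises the COB transcript, CBP2 (YHL038C) is needed to splice an intron of it, CBS1 (YDL069C) and CBS2 (YDR197W) activate its translation, and CBP3 (YPL215W) and CBP6 (YBR120C) bind both the ribosome and the new protein. Of these 6 genes, 1 was lower (16.7%) and 1 higher (16.7%) in Δpde2 cells, against either other strain. Of all genes, 7.41% were called lower and 5.56% higher against Δpde2Δtpk3 cells, and 21.9% and 19.5% against wild type cells. The role was thus not above all genes in the comparison with wild type cells. CBS2 stood at 8.95, 9.14 and 9.03 in Δpde2 cells, 9.77 and 10.09 in Δpde2Δtpk3 cells, and 10.22, 9.86 and 9.94 in wild type cells. It was at 54.0% of the level in Δpde2Δtpk3 cells (-0.89, SE 0.16, adjusted p 0.0184) and 51.2% of that in wild type cells (-0.97, SE 0.14, adjusted p 0.00233). CBP2 went the other way, at 8.57, 8.75 and 8.83 in Δpde2 cells, 8.10 and 7.81 in Δpde2Δtpk3 cells, and 7.77, 7.95 and 8.01 in wild type cells. Every Δpde2 array was above every array of the other strains. The rise was 0.76 (SE 0.15, adjusted p 0.0229) against Δpde2Δtpk3 cells and 0.81 (SE 0.13, adjusted p 0.00353) against wild type cells. Against Δpde2Δtpk3 cells both calls were lost whichever of the 5 mutant arrays was dropped, with highest adjusted p values of 0.112 for CBS2 and 0.131 for CBP2.

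Later steps of complex III assembly involve CBP4 (YGR174C), which acts on newly made cytochrome b, BCS1 (YDR375C), which moves the Rieske iron-sulphur protein across the inner membrane, and MZM1 (YDR493W), which stabilises that protein beforehand. CBP4 gave the closest replicates in Δpde2 cells, at 10.64, 10.64 and 10.65, with 11.72 and 11.61 in Δpde2Δtpk3 cells and 12.05, 11.93 and 12.17 in wild type cells. The 3 strains did not overlap. CBP4 was at 49.2% of its level in Δpde2Δtpk3 cells (-1.02, SE 0.12, adjusted p 0.00711) and 37.7% of that in wild type cells (-1.41, SE 0.11, adjusted p 0.000259). MZM1 read 8.97, 9.11 and 9.01 in Δpde2 cells, 9.91 and 10.10 in Δpde2Δtpk3 cells, and 10.15, 9.71 and 9.79 in wild type cells, where the Δpde2Δtpk3 and wild type arrays overlapped. The fall was to 50.8% (-0.98, SE 0.16, adjusted p 0.0159) of the level in Δpde2Δtpk3 cells and 55.3% (-0.85, SE 0.14, adjusted p 0.00378) of that in wild type cells. Against Δpde2Δtpk3 cells it was lost whichever of the 5 mutant arrays was left out (highest adjusted p 0.0986). BCS1 was below the other strains on every Δpde2 array, at 10.12, 10.10 and 9.96 against 10.24 and 10.44 in Δpde2Δtpk3 cells and 10.70, 10.30 and 10.33 in wild type cells. It passed in neither comparison (-0.28, adjusted p 0.297, and -0.38, adjusted p 0.0702).

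**Figure D4:**
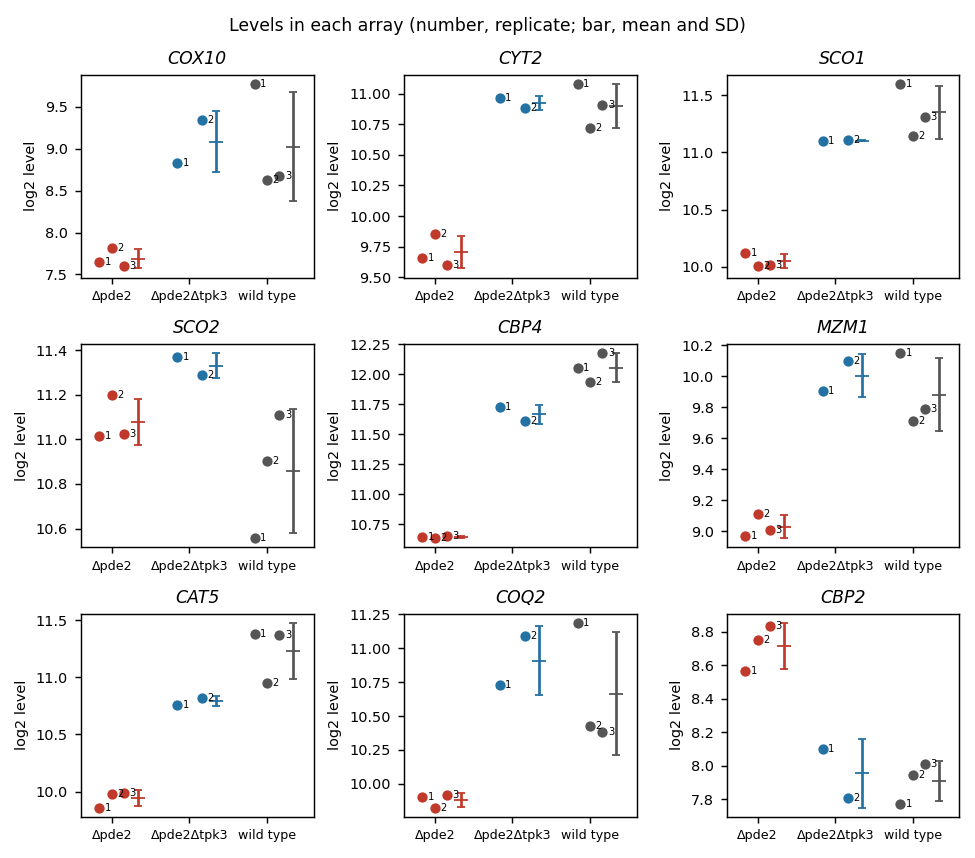
Log2 levels of 9 genes on each array, with the strains from left to right as Δpde2, Δpde2Δtpk3 and wild type, the replicate number beside each point, and a bar for the mean and SD (n = 3, 2 and 3). The log2 axes do not start at 0 and differ between panels. The Δpde2 points lie below all others for COX10, CYT2, SCO1, CBP4, MZM1, CAT5 and COQ2, overlap the wild type for SCO2, and lie above all others for CBP2.

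Complex IV contains haem a, which is made from haem b by COX10 (YPL172C), haem O synthase, and COX15 (YER141W), haem A synthase. Both genes fell in Δpde2 cells, in both comparisons. COX10 had levels of 7.65, 7.81 and 7.60 in Δpde2 cells, 8.83 and 9.34 in Δpde2Δtpk3 cells, and 9.77, 8.63 and 8.67 in wild type cells. The Δpde2 arrays lay below all others, although both other strains were spread. It had the largest fall of the 49 genes against Δpde2Δtpk3 cells, to 37.9% (-1.40, SE 0.35, adjusted p 0.0453), but with single arrays left out it was called there only without wild type replicate 1 (adjusted p 0.000817). Leaving out any other array gave an adjusted p of up to 0.240. Against wild type cells it was at 39.5% (-1.34, SE 0.32, adjusted p 0.0143), and without Δpde2 replicate 1 or 3 its adjusted p passed 0.05 (highest 0.0547). Without wild type replicate 1 that difference was -0.96. COX15 read 11.94, 12.13 and 11.99 in Δpde2 cells, 12.85 and 12.79 in Δpde2Δtpk3 cells, and 12.70, 12.70 and 12.78 in wild type cells. Its replicates were closer, and it was at 57.5% of the level in Δpde2Δtpk3 cells (-0.80, SE 0.11, adjusted p 0.0107) and 61.2% of that in wild type cells (-0.71, SE 0.10, adjusted p 0.00190). Without Δpde2 replicate 1 or 3 or either Δpde2Δtpk3 array the adjusted p of COX15 against Δpde2Δtpk3 cells was over 0.05, reaching 0.0673.

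Copper reaches complex IV through COX17 (YLL009C), a chaperone of the intermembrane space, which hands it to SCO1 (YBR037C) for the Cox2p site and to COX11 (YPL132W) for the Cox1p site. COX19 (YLL018C-A), COX23 (YHR116W) and PET191 (YJR034W) are small twin CX9C proteins of the same compartment, and SCO2 (YBR024W) is the paralogue of SCO1. Of these 7 genes, 4 fell in Δpde2 cells relative to Δpde2Δtpk3 cells (57.1%, against 7.41% of all genes). Relative to wild type cells 3 fell (42.9%, against 21.9% of all genes). SCO1 stood at 10.12, 10.01 and 10.01 in Δpde2 cells, 11.10 and 11.11 in Δpde2Δtpk3 cells, and 11.60, 11.14 and 11.31 in wild type cells. No Δpde2 array came near the others. SCO1 was at 48.0% of its level in Δpde2Δtpk3 cells (-1.06, SE 0.15, adjusted p 0.0116) and 40.5% of that in wild type cells (-1.30, SE 0.14, adjusted p 0.000662), while the difference between Δpde2Δtpk3 and wild type cells was -0.25 (95% interval -0.61 to 0.11). SCO2 read 11.02, 11.20 and 11.02 in Δpde2 cells, 11.37 and 11.29 in Δpde2Δtpk3 cells, and 10.56, 10.90 and 11.11 in wild type cells, and passed in no comparison (-0.25, adjusted p 0.395, and 0.22, adjusted p 0.282). The difference between SCO1 and SCO2 was not tested, nor was cross-hybridisation between their probe sets.

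COX11 was at 9.79, 9.89 and 9.76 in Δpde2 cells, 10.41 and 10.42 in Δpde2Δtpk3 cells, and 10.45, 10.46 and 10.53 in wild type cells. Its falls were of a similar size, -0.60 (SE 0.11, adjusted p 0.0176) against Δpde2Δtpk3 cells and -0.67 (SE 0.10, adjusted p 0.00194) against wild type cells. COX19, at 11.11, 10.77 and 10.87 in Δpde2 cells, 11.50 and 11.63 in Δpde2Δtpk3 cells and 11.55, 11.69 and 11.45 in wild type cells, fell by 0.65 in each comparison on the log2 scale (adjusted p 0.0328 and 0.00770). PET191 fell only against Δpde2Δtpk3 cells (-0.50, SE 0.11, adjusted p 0.0297), with 10.89, 10.93 and 10.88 in Δpde2 cells, 11.42 and 11.38 in Δpde2Δtpk3 cells, and 11.07, 11.14 and 11.23 in wild type cells. The strains did not overlap, and the difference from wild type cells did not pass (-0.25, adjusted p 0.0792), except without wild type replicate 1 (-0.28, adjusted p 0.0186). Against Δpde2Δtpk3 cells the calls of SCO1, COX11, COX19 and PET191 were lost whichever of the 5 mutant arrays was dropped, with highest adjusted p values of 0.0708, 0.0959, 0.168 and 0.126. That of COX19 was also lost without wild type replicate 3, and that of PET191 without wild type replicate 2.

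Membrane insertion of complex IV subunits uses OXA1 (YER154W), the insertase of the inner membrane, COX18 (YGR062C) and MSS2 (YDL107W), which export the Cox2p tail, and COX20 (YDR231C), a chaperone of Cox2p. None of these 4 genes was called against Δpde2Δtpk3 cells, where 7.41% of all genes were called lower. OXA1 and COX20 fell relative to wild type cells, where 21.9% of all genes were called lower. COX20 was at 11.87, 12.00 and 11.94 in Δpde2 cells, 12.29 and 12.26 in Δpde2Δtpk3 cells, and 12.61, 12.44 and 12.54 in wild type cells, with no overlap between any of the strains. The log2 fold change was -0.34 (adjusted p 0.0923) against Δpde2Δtpk3 cells and -0.60 (SE 0.10, adjusted p 0.00362) against wild type cells. OXA1, at 11.26, 11.03 and 11.21 in Δpde2 cells, 11.39 and 11.19 in Δpde2Δtpk3 cells and 11.76, 11.49 and 11.50 in wild type cells, fell by 0.42 on the log2 scale relative to wild type cells (SE 0.13, adjusted p 0.0390). That call was lost when wild type replicate 2 or 3 or a Δpde2 array was left out (highest adjusted p 0.138). COX18 read 9.46, 9.58 and 9.68 in Δpde2 cells, 10.21 and 10.32 in Δpde2Δtpk3 cells, and 10.99, 9.91 and 10.13 in wild type cells, below the other strains on every Δpde2 array. It did not pass (-0.69, adjusted p 0.180, and -0.77, adjusted p 0.0547) unless wild type replicate 1 was left out (-0.69, adjusted p 0.00274, and -0.44, adjusted p 0.00922).

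Other complex IV assembly factors comprise COX14 (YML129C), which acts on newly made Cox1p, SHY1 (YGR112W), the yeast homologue of human SURF1, COX16 (YJL003W), PET100 (YDR079W) and PET117 (YER058W). COX14 was the only gene of these 5 to fall relative to Δpde2Δtpk3 cells (20%, against 7.41% of all genes). COX14 and SHY1 fell relative to wild type cells (40%, against 21.9% of all genes). Levels of COX14 were 11.57, 11.55 and 11.44 in Δpde2 cells, 12.19 and 11.88 in Δpde2Δtpk3 cells, and 12.13, 12.11 and 12.16 in wild type cells. The fall was -0.52 (SE 0.13, adjusted p 0.0433) and -0.61 (SE 0.12, adjusted p 0.00597). With single arrays left out, the call against Δpde2Δtpk3 cells held only without wild type replicate 1. Dropping any other array gave an adjusted p of up to 0.180. SHY1, at 10.15, 10.09 and 10.06 in Δpde2 cells, 10.56 and 10.47 in Δpde2Δtpk3 cells and 11.10, 10.49 and 10.62 in wild type cells, differed by -0.42 (adjusted p 0.187) from Δpde2Δtpk3 cells and by -0.64 (SE 0.17, adjusted p 0.0201) from wild type cells, a call lost whichever Δpde2 array was left out (highest adjusted p 0.0732). COX16 lay at 10.12, 10.15 and 10.18 in Δpde2 cells and 10.74 and 10.84 in Δpde2Δtpk3 cells, while wild type cells gave 10.05, 10.90 and 11.08. The lowest of its wild type values was that of replicate 1. With all arrays COX16 did not pass (-0.64, adjusted p 0.189, and -0.52, adjusted p 0.138), and with that array left out it was lower in Δpde2 cells in both comparisons (-0.64, adjusted p 0.00188, and -0.84, adjusted p 0.000232).

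The mitochondrially encoded subunits Cox1p, Cox2p and Cox3p each depend on translational activators. PET309 (YLR067C) and MSS51 (YLR203C) serve COX1, PET111 (YMR257C) serves COX2, and PET54 (YGR222W), PET122 (YER153C) and PET494 (YNR045W) serve COX3. Of these 6 genes, 3 fell relative to Δpde2Δtpk3 cells, 1 for each subunit (50%, against 7.41% of all genes). Relative to wild type cells 4 fell (66.7%, against 21.9% of all genes). PET111 was at 8.36, 8.39 and 8.45 in Δpde2 cells, 9.00 and 9.08 in Δpde2Δtpk3 cells, and 8.77, 9.09 and 9.21 in wild type cells (-0.64, SE 0.15, adjusted p 0.0373, and -0.62, SE 0.14, adjusted p 0.0102). PET494 was at 10.31, 10.42 and 10.22 in Δpde2 cells, 11.05 and 10.74 in Δpde2Δtpk3 cells, and 10.84, 10.89 and 11.03 in wild type cells (-0.58, SE 0.14, adjusted p 0.0417, and -0.60, SE 0.13, adjusted p 0.00936). MSS51 was at 11.35, 11.36 and 11.27 in Δpde2 cells, 11.98 and 11.70 in Δpde2Δtpk3 cells, and 11.84, 11.71 and 11.75 in wild type cells (-0.51, SE 0.13, adjusted p 0.0422, and -0.44, SE 0.11, adjusted p 0.0200). In all 3 genes the Δpde2 arrays lay below every other array, and the Δpde2Δtpk3 and wild type arrays overlapped.

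PET54 fell relative to wild type cells (-0.80, SE 0.14, adjusted p 0.00456), with 10.56, 10.69 and 10.27 in Δpde2 cells, 11.05 and 10.93 in Δpde2Δtpk3 cells, and 11.17, 11.33 and 11.43 in wild type cells. Its difference from Δpde2Δtpk3 cells was -0.48 (adjusted p 0.0938). PET122, which lies next to OXA1 in the genome, was the most scattered of the COX3 activators, at 8.92, 8.78 and 8.83 in Δpde2 cells, 9.46 and 8.51 in Δpde2Δtpk3 cells, and 10.36, 9.25 and 9.42 in wild type cells, and passed in no comparison (-0.14, adjusted p 0.860, and -0.83, adjusted p 0.0896). Both Δpde2Δtpk3 arrays lay on opposite sides of the Δpde2 values. The falls of PET111, PET494 and MSS51 relative to Δpde2Δtpk3 cells were lost whichever of the 5 mutant arrays was left out (highest adjusted p 0.173, 0.179 and 0.177), those of PET494 and MSS51 also without wild type replicate 2 or 3, and that of PET111 also without wild type replicate 2. Relative to wild type cells MSS51 was not called when wild type replicate 3 or a Δpde2 array was left out (highest adjusted p 0.0829).

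None of the 5 genes for the assembly and expression of ATP synthase was called against Δpde2Δtpk3 cells, where 7.41% of all genes were called lower. Relative to wild type cells 1 fell (20%) and 1 rose (20%). These shares are close to the 21.9% lower and 19.5% higher of all genes. ATP11 (YNL315C) and ATP12 (YJL180C) are chaperones of the F1 β and α subunits, ATP10 (YLR393W) assembles Atp6p, ATP22 (YDR350C) activates its translation, and FMC1 (YIL098C) is needed for F1 assembly at high temperature. FMC1 was at 10.27, 10.13 and 10.36 in Δpde2 cells, 10.06 and 9.84 in Δpde2Δtpk3 cells, and 8.99, 9.53 and 9.69 in wild type cells, so that the strains did not overlap. In Δpde2 cells it rose to 180% of its value in wild type cells (0.85, SE 0.20, adjusted p 0.0128), and the differences were 0.30 (adjusted p 0.413) between Δpde2 and Δpde2Δtpk3 cells and 0.55 (95% interval 0.03 to 1.06, adjusted p 0.223) between Δpde2Δtpk3 and wild type cells. Without Δpde2 replicate 3 the call of FMC1 was lost (adjusted p 0.0543). ATP10 had 7.61, 7.51 and 7.55 in Δpde2 cells, 8.28 and 7.89 in Δpde2Δtpk3 cells, and 9.33, 8.14 and 8.16 in wild type cells. It fell relative to wild type cells (-0.99, SE 0.32, adjusted p 0.0436), and the difference was -0.59 (adjusted p 0.00423) without wild type replicate 1. That call was lost whichever of the 5 mutant arrays was left out (highest adjusted p 0.116). For the chaperones of the F1 subunits the differences from Δpde2Δtpk3 cells were 0.21 (adjusted p 0.553) for ATP11 and -0.40 (adjusted p 0.236) for ATP12, and neither passed.

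Coenzyme Q is made from a polyprenyl tail and an aromatic ring, and 9 genes of the pathway were measured. Of these, 4 fell in Δpde2 cells relative to Δpde2Δtpk3 cells (44.4%, against 7.41% of all genes). Relative to wild type cells 6 fell (66.7%, against 21.9% of all genes), and none rose in either comparison. COQ1 (YBR003W), which makes the tail, was at 10.58, 10.55 and 10.55 in Δpde2 cells, 11.19 and 11.23 in Δpde2Δtpk3 cells, and 11.04, 11.05 and 10.94 in wild type cells. The 3 strains did not overlap, and the fall was -0.65 (SE 0.10, adjusted p 0.0152) against Δpde2Δtpk3 cells and -0.45 (SE 0.09, adjusted p 0.00870) against wild type cells. COQ2 (YNR041C), which joins tail and ring, was at 9.90, 9.83 and 9.92 in Δpde2 cells, 10.73 and 11.09 in Δpde2Δtpk3 cells, and 11.19, 10.42 and 10.39 in wild type cells. It was at 49.1% of the level in Δpde2Δtpk3 cells (-1.03, SE 0.26, adjusted p 0.0430) and 58.1% of that in wild type cells (-0.78, SE 0.23, adjusted p 0.0307). The wild type value rested partly on replicate 1, without which the difference was -0.52 (adjusted p 0.00642). COQ3 (YOL096C), the O-methyltransferase of the ring, was at 10.43, 10.57 and 10.55 in Δpde2 cells, 11.16 and 11.07 in Δpde2Δtpk3 cells, and 11.19, 10.77 and 11.02 in wild type cells (-0.60, SE 0.15, adjusted p 0.0421, and -0.48, SE 0.13, adjusted p 0.0256).

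CAT5 (YOR125C, also COQ7), a ring hydroxylase of a late step, had the largest fall of the pathway relative to wild type cells. Its levels were 9.86, 9.98 and 9.98 in Δpde2 cells, 10.76 and 10.82 in Δpde2Δtpk3 cells, and 11.37, 10.95 and 11.37 in wild type cells. The strains stood in that order with no overlap. CAT5 was at 55.5% of the level in Δpde2Δtpk3 cells (-0.85, SE 0.16, adjusted p 0.0198) and 40.9% of that in wild type cells (-1.29, SE 0.14, adjusted p 0.000791), and the difference between Δpde2Δtpk3 and wild type cells was -0.44 (95% interval -0.81 to -0.07, adjusted p 0.188). COQ4 (YDR204W), which organises the synthesis complex, was at 11.50, 11.53 and 11.52 in Δpde2 cells, 12.00 and 11.85 in Δpde2Δtpk3 cells, and 12.42, 12.05 and 12.35 in wild type cells. It fell relative to wild type cells (-0.76, SE 0.13, adjusted p 0.00363) but did not pass against Δpde2Δtpk3 cells (-0.41, adjusted p 0.106). COQ9 (YLR201C), a lipid-binding protein encoded next to MSS51, was at 10.89, 11.02 and 11.03 in Δpde2 cells, 11.25 and 10.99 in Δpde2Δtpk3 cells, and 11.58, 11.24 and 11.36 in wild type cells. It fell by 0.41 on the log2 scale relative to wild type cells (SE 0.13, adjusted p 0.0424).

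The remaining coenzyme Q genes passed in no comparison. COQ5 (YML110C), the C-methyltransferase, was at 12.89, 12.89 and 13.01 in Δpde2 cells, 12.88 and 12.78 in Δpde2Δtpk3 cells, and 12.76, 12.83 and 12.89 in wild type cells. COQ6 (YGR255C), a monooxygenase, had 11.04, 11.09 and 11.21 in Δpde2 cells, 11.09 and 10.97 in Δpde2Δtpk3 cells, and 11.38, 10.79 and 10.80 in wild type cells. COQ8 (YGL119W), an atypical kinase of the pathway, had 10.62, 10.64 and 10.69 in Δpde2 cells, 10.72 and 10.71 in Δpde2Δtpk3 cells, and 11.06, 10.76 and 10.79 in wild type cells. Against Δpde2Δtpk3 cells the differences of these 3 genes were 0.10 (95% interval -0.16 to 0.37), 0.08 (-0.38 to 0.55) and -0.06 (-0.37 to 0.24). Relative to Δpde2Δtpk3 cells the falls of COQ1, COQ2, COQ3 and CAT5 were lost whichever of the 5 mutant arrays was left out (highest adjusted p 0.0863, 0.232, 0.159 and 0.112), that of COQ2 also without wild type replicate 2 or 3, and that of COQ3 also without wild type replicate 3. Relative to wild type cells COQ2 was lost whichever Δpde2 array was left out (highest adjusted p 0.0939), and COQ3 and COQ9 when wild type replicate 3 or a Δpde2 array was left out (up to 0.0990 and 0.144).

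For some members the wild type mean rested on replicate 1. PET309 was at 7.51, 7.42 and 7.28 in Δpde2 cells, 7.83 and 7.92 in Δpde2Δtpk3 cells, and 4.17, 7.92 and 8.17 in wild type cells, the lowest being replicate 1. CBS1 was at 8.62, 8.79 and 8.69 in Δpde2 cells, 9.19 and 9.19 in Δpde2Δtpk3 cells, and 6.28 (replicate 1), 9.34 and 9.46 in wild type cells. In both genes every Δpde2 array was below both Δpde2Δtpk3 arrays and below wild type replicates 2 and 3. With all arrays, Δpde2 minus wild type was 0.65 (SE 0.97) for PET309 and 0.34 (SE 0.78) for CBS1, and without replicate 1 it was -0.65 (adjusted p 0.00205) and -0.70 (adjusted p 0.000475), the opposite direction. MSS2 was at 9.76, 9.78 and 9.91 in Δpde2 cells, 9.93 and 9.85 in Δpde2Δtpk3 cells, and 7.75 (replicate 1), 9.68 and 9.83 in wild type cells. COX17 was at 12.25, 12.31 and 12.20 in Δpde2 cells, 12.62 and 12.36 in Δpde2Δtpk3 cells, and 10.33 (replicate 1), 12.22 and 12.25 in wild type cells. Only replicate 1 was far from the rest, and Δpde2 minus wild type was 0.73 and 0.66 with it and 0.06 (adjusted p 0.612) and 0.02 (adjusted p 0.881) without it. In all, 5 of the 49 genes were lower by at least 1 (log2) on replicate 1 than the mean of the other wild type arrays and 4 were higher by at least 1, whereas replicates 2 and 3 were within 0.5 of each other for all 49.

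**Figure D5:**
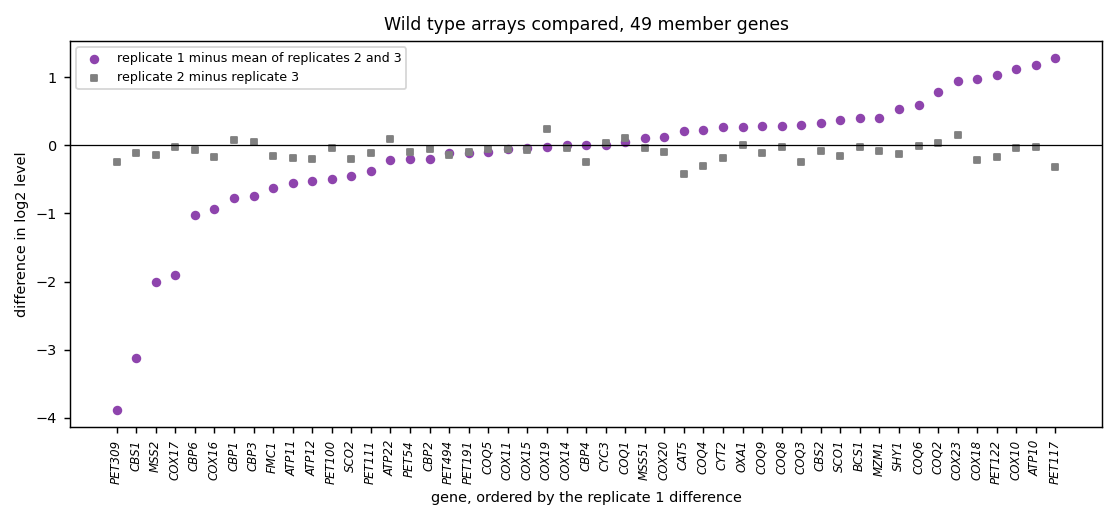
Difference in log2 level for each of the 49 genes, ordered by it, between wild type replicate 1 and the mean of replicates 2 and 3 (circles), and between replicates 2 and 3 (squares). The circles reach from -3.88 (PET309) to 1.27 (PET117), while the squares stay within 0.5.

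Structural subunits of the same complexes, taken from lists of the nuclear genes, also held falls in Δpde2 cells. Relative to Δpde2Δtpk3 cells, where 7.41% of all genes were called lower, 2 of 9 complex III subunits fell, CYT1 (cytochrome c1, to 50.1%, adjusted p 0.0179) and RIP1 (the Rieske protein, -0.79, adjusted p 0.0479). Both are the substrates of helpers described above: CYT2 acts on the first, and MZM1 and BCS1 on the second. Of 9 complex IV subunits 4 fell, with COX4 the largest (-1.18, adjusted p 0.0138), and of 17 ATP synthase genes 4 fell, with the inhibitor INH1 the largest (-0.86, adjusted p 0.0277). CYC1, the main cytochrome c, fell (-0.96, adjusted p 0.0204). None of these 37 genes rose. Relative to wild type cells, where 21.9% of all genes were called lower, the counts were 3 of 9, 5 of 9, 10 of 17 and 1 of 2 (7, 8, 16 and 1 without wild type replicate 1, with 29.4% of all genes called lower). COX5B, the hypoxic isoform of a complex IV subunit, rose in Δpde2 cells (0.98, adjusted p 0.00282). It also rose in Δpde2Δtpk3 cells (0.92, adjusted p 0.0428), a call kept only without wild type replicate 1 when an array was left out (highest adjusted p 0.257).

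Among 30 further assembly and expression factors that are not among the 49 genes, 5 fell relative to Δpde2Δtpk3 cells (COA2, COA3, RCF2, MBA1 and NCA3). Relative to wild type cells 11 fell and 2 rose (16 and 4 without wild type replicate 1). Of all genes, 7.41% were called lower in the first comparison, and 21.9% lower and 19.5% higher in the second (29.4% and 31.4% without that replicate). The complex IV factor COA2 was at 42.6% of its level in Δpde2Δtpk3 cells (-1.23, SE 0.14, adjusted p 0.00683). NCA3, which takes part in the expression of mitochondrial ATP synthase subunits, was at 14.3% (-2.81, SE 0.31, adjusted p 0.00659), and was the only gene of this list called in Δpde2Δtpk3 cells relative to wild type cells (-2.13, adjusted p 0.0228, and up to 0.122 with an array left out). Upstream supplies were mixed. Of 7 copper supply genes 3 fell and 1 rose relative to Δpde2Δtpk3 cells: the plasma membrane importer CTR1 (-0.87, adjusted p 0.0190), the copper pump CCC2 (-1.19, adjusted p 0.0254) and the mitochondrial carrier PIC2 (-1.47, adjusted p 0.00381) fell, and the copper-sensing activator MAC1 rose (0.45, adjusted p 0.0489). CTR1 was also lower in Δpde2Δtpk3 cells than in wild type cells with all arrays (limma, -0.95, SE 0.16, adjusted p 0.0330). In Δpde2 cells, 4 of the 7 fell and 1 rose relative to wild type cells. The largest change there was that of CTR1 (limma, -1.82, SE 0.14, adjusted p 0.000284). Of 8 haem synthesis genes, relative to Δpde2Δtpk3 cells, HEM2 fell (-0.64, adjusted p 0.0235) and HEM13, which encodes an oxygen-requiring step, rose (0.99, adjusted p 0.0190). Relative to wild type cells HEM1, HEM2 and HEM15 fell (37.5% of the list) and HEM13 and HEM14 rose (25%) in Δpde2 cells. The haem counts with an array left out are not given here. HAP4, the activating subunit of the HAP complex that drives respiratory genes, was at 12.59, 12.56 and 12.43 in Δpde2 cells, 13.22 and 12.76 in Δpde2Δtpk3 cells, and 11.88, 13.20 and 12.98 in wild type cells. Against Δpde2Δtpk3 cells 0 of the 5 genes of that regulator list were called (limma), HAP1, the haem-responsive activator, having the lowest adjusted p (-0.72, adjusted p 0.0710), and 2 fell without wild type replicate 1. Relative to wild type cells HAP1 alone of the list fell (-0.76, SE 0.19, adjusted p 0.0179), at 10.24, 9.98 and 10.06 in Δpde2 cells, 10.60 and 11.03 in Δpde2Δtpk3 cells, and 10.74, 10.62 and 11.19 in wild type cells. That call was lost without Δpde2 replicate 2 (adjusted p 0.0686) or 3 (0.0653). Of the genes named from these lists, COA2, NCA3 and PIC2 were called against Δpde2Δtpk3 cells whichever array was left out. Leaving out an array of either mutant took the counts lower to 0 of 9 complex III subunits, 0 to 2 of 9 complex IV subunits, 0 of 17 ATP synthase genes, 2 of 30 further factors and 1 of 7 copper genes, and leaving out wild type replicate 1 to 4, 7, 11, 14 and 5 of the same lists, when 20.8% of all genes were called lower.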

How the data were processed

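RNA was hybridised to 8 Affymetrix Yeast Genome 2.0 arrays. The authors deposited log2 values per probe set. How they were summarised and normalised is not given in the sources used here, and the methods name limma and a quality check in dChip. The first quartiles of the deposited columns spanned 0.386, so the values were quantile normalised in limma 3.58.1 under R 4.3.3. Of 5814 probe sets, 5498 had 1 gene in the annotation, 316 had none and were left out, and the brightest was kept for 47 genes with several. Each contrast came from a moderated linear model of 3 strains (5 residual degrees of freedom), and p-values were adjusted over 5449 genes (Benjamini-Hochberg). The code was tested on simulated data. The 49 genes, their roles and the other lists were chosen with earlier results of these data known, from general knowledge of yeast. Levels are named for genes called in either contrast of Δpde2 cells, for paralogues, partners and near misses among the 49, and for genes that wild type replicate 1 moves. From the other lists only some of the genes past the test are named, chosen with their values seen, as was HAP4. Alternatives were other normalisations, filters, moderation, array weights, a replicate block, a fold limit and each array left out. The number of arrays limits the precision. Sequences were not used here.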

Additional observations from a re-analysis of the deposited data

How the results depend on the processing

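The median log2 fold change of the 49 genes stayed between -0.49 and -0.37 for Δpde2 minus Δpde2Δtpk3, between -0.49 and -0.42 for Δpde2 minus wild type and between -0.0018 and 0.08 for Δpde2Δtpk3 minus wild type. Counts moved more. Of the 18 genes lower in Δpde2 than in Δpde2Δtpk3 cells, 11 were called after median centring and 5 with a fold of at least 2. The count was 31 both when wild type replicate 1 was left out before normalisation and when only the mutants' arrays were fitted. In these settings, in that order, 6.11%, 2.5%, 20.8% and 19.7% of all genes were called lower. The 1 higher call became 0 with values as deposited, median centring, the dimmest genes left out (3632 genes kept), trend and robust moderation, or a fold of at least 2. With the dimmest genes left out, 36 of the 49 genes were kept and 14 were called lower, with 11.8% of all genes. COX10, CBS2, MZM1 and PET111, of the 18, and ATP10 were among the dimmest, so that setting does not test them. With an array left out these counts ran from 1 to 31 lower and from 0 to 1 higher. Against wild type cells a fold of at least 2 left 5 lower and 0 higher, where 9.07% of all genes were called lower. The 2 higher calls became 5 without wild type replicate 1 before normalisation, 1 without the dimmest genes, of which CBP2 is one, and 6 with array weights. Of all genes, 31.5%, 24.8% and 37.2% were called higher in these settings, so the 49 genes did not exceed all genes there. With an array left out the higher calls ran from 1 to 5, and from 11% to 31.4% of all genes. For Δpde2Δtpk3 minus wild type there were 1 lower and 4 higher without wild type replicate 1 before normalisation, with 9.12% and 8.85% of all genes. With array weights there were 1 and 2, with 6.85% and 6.72% of all genes. With an array left out the counts ran from 0 to 1 and from 0 to 4. Deviations of same-numbered arrays from their strain means correlated at r from -0.09 to 0.19 over 7 pairs. Differently numbered arrays gave r from -0.19 to 0.19. These values are constrained because each strain mean comes from few arrays. The 2 Δpde2Δtpk3 arrays necessarily give the same r with opposite sign. The correlations therefore cannot decide whether same-numbered arrays share more than a number. With a replicate block the counts were 0 lower and 0 higher against Δpde2Δtpk3 cells, where 0 and 1 of all genes were called, and 22 and 2 against wild type cells, and 0 and 0 for Δpde2Δtpk3 minus wild type. The cause of these shifts was not tested. Of 1696 values of single genes under an alternative, 1356 kept direction and call, 260 lost and 64 gained the call, and 16 changed direction. PET309 minus wild type in Δpde2 cells became -0.63 and CBS1 -0.66 without wild type replicate 1 before normalisation, -0.66 and -0.71 with array weights, and ran from -0.65 to 1.36 and from -0.70 to 0.89 with an array left out. In the same contrast COX23 ran from -0.19 to 0.32 and PET117 from -0.033 to 0.68. PET122 in Δpde2 minus Δpde2Δtpk3 ran from -0.61 to 0.34. In Δpde2Δtpk3 minus wild type, CYT2 was -3e-04 after median centring, -5e-04 with the block and -0.067 to 0.11 with an array left out, and PET117 ran from -0.065 to 0.65. Only 2 Δpde2Δtpk3 arrays were analysed, and a fit without 1 of them assumes that the other varies like the other strains.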
